A study of Arabidopsis thaliana with 4 samples.

Results

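This account covers 48 Arabidopsis thaliana genes of the cold, dehydration and abscisic acid responses, out of 34133 loci in the deposited tables. They were taken by locus identifier from a list that was chosen with earlier results of these data known. It holds CBF and DREB2 transcription factors, cold-regulated and late embryogenesis abundant genes, galactinol synthases, and genes of abscisic acid synthesis, breakdown and signalling. All 48 were present in both tables. Total RNA was sequenced after ribosomal RNA had been removed. The plants were a double mutant (dko), which carries mutations in the genes TRIC1 (AT3G49560) and TRIC2 (AT5G24650), and wild type, labelled Col0. TRIC1 and TRIC2 encode mitochondrial membrane proteins that have been linked to the uptake of tRNA. The groups were dko rosette leaves, wild-type rosette leaves, dko seedlings and wild-type seedlings, each stated to hold 3 replicates, with rosettes taken at 4 weeks and seedlings at 2 weeks. All plants came from seeds kept at 4 °C for 2 days and then grew on MS medium at 22 °C under a 16 h photoperiod, with a light intensity labelled as 80 nmol quanta per m2 and second. The rosette plants grew in soil after day 5. No cold, drought or abscisic acid treatment is given in the labels, so the values describe plants in standard growth. The sources used here do not state the kind and position of the mutations, nor whether a replicate was a pool of plants.

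In a chilled Arabidopsis plant, ICE1 and CAMTA3 activate the CBF genes. The CBF proteins bind a short DNA element (CRT/DRE) before the cold-regulated (COR) genes. Many COR products are small hydrophilic proteins that protect membranes and proteins against freezing and water loss, and others are membrane proteins. Abscisic acid, the hormone of drought and seed dormancy, is made through the enzyme NCED and removed by hydroxylases of the CYP707A family. Without the hormone, protein phosphatases such as ABI1 hold SnRK2 kinases inactive; with it, receptors bind the phosphatases, and the freed kinases switch on the ABF transcription factors, which bind another element (ABRE) before genes such as RAB18 and RD29B. Genes such as RD29A carry both kinds of element and answer to cold, drought and the hormone.

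The authors deposited 1 table per tissue, with 1 FPKM value (a fragment count set against transcript length and library size) per gene and group, pooled over its replicates. No value below therefore has a standard deviation, and an overlap between the replicates of dko and wild type cannot be judged. Error enters only through the deposited q-value of Cuffdiff, adjusted over all loci tested; "fell" or "rose" is used for q below 0.05. The depth per library is unknown. In the authors' deposited tables TRIC1 had 10.7 FPKM in dko rosettes against 34.7 in wild-type rosettes, and 16.2 FPKM in dko seedlings against 33.9 in wild-type seedlings. TRIC2 had 0.0690 FPKM in dko rosettes against 17.5 in wild-type rosettes, and 0.366 FPKM in dko seedlings against 17.7 in wild-type seedlings. For TRIC2 the authors' deposited tables give q = 0.146 in rosettes and q = 0.000768 in seedlings. The tissue labels were checked against markers: 3 seed storage and oil body genes lay at or near 0 in every group (highest value 0.282 FPKM), and 3 leaf genes were abundant (110 to 15494 FPKM). Of the leaf genes, CA1 fell in both tissues and LHCB1.3 in seedlings, and their summed level was 7147 FPKM in dko rosettes against 14171 in wild-type rosettes and 13206 FPKM in dko seedlings against 28750 in wild-type seedlings. The part of this in the results below was not tested. The 9 root genes summed to 8.25 FPKM in dko rosettes against 8.21 in wild-type rosettes and to 15.0 FPKM in dko seedlings against 15.2 in wild-type seedlings. In each tissue 3 of the 9 were tested and none passed (in the authors' deposited tables the smallest q was 0.196). EXPA7, COBL9 and IRT1 were listed at 0 in both rosette groups, whereas SCR, SHR and NRT2.1 were present there, with 5.35, 2.00 and 0.801 FPKM in dko rosettes against 3.93, 2.696 and 1.35 FPKM in wild-type rosettes. NRT2.1 was lower in seedlings, at 0.155 FPKM in the dko and 0.201 in wild type. Most of the seedling sum came from SCR and SHR, with 7.86 and 4.81 FPKM in dko seedlings against 7.44 and 5.26 in wild-type seedlings. EXPA7, COBL9 and IRT1 were not tested in seedlings, at 0.330, 0.214 and 0.0990 FPKM in the dko against 0.317, 0.0673 and 0.290 in wild type. In bulk tissue, fewer cells of a type and less RNA per cell cannot be told apart. Nuclear FPKM other than ribosomal RNA summed to less in the dko than in wild type, and rescaling to that sum would add 0.27 to every log2 ratio in rosettes and 0.19 in seedlings.

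Of the 44 genes of the group that were tested in rosettes, 15 fell in the dko and 1 rose, and of the 45 tested in seedlings 18 fell and 2 rose. The lower genes were 34.1% and 40% of those tested. Over all loci tested, the share that fell was 8.94% in rosettes and 8.14% in seedlings, and the share that rose was 7.81% and 8.40%. The median log2 ratio of dko over wild type was -0.39 for the tested genes of the group in rosettes, against 0.01 over all tested loci, and -0.38 in seedlings, again against 0.01. The group was chosen with earlier results of these data known. Its contrasts with all tested loci therefore describe the group and are no independent test. The cold branch (21 genes) had 8 lower and 1 higher in rosettes and 13 lower and 1 higher in seedlings. In the abscisic acid and dehydration branch (27 genes, of which 23 were tested in rosettes and 24 in seedlings), 7 fell and none rose in rosettes, and 5 fell and 1 rose in seedlings.

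**Figure D1:**
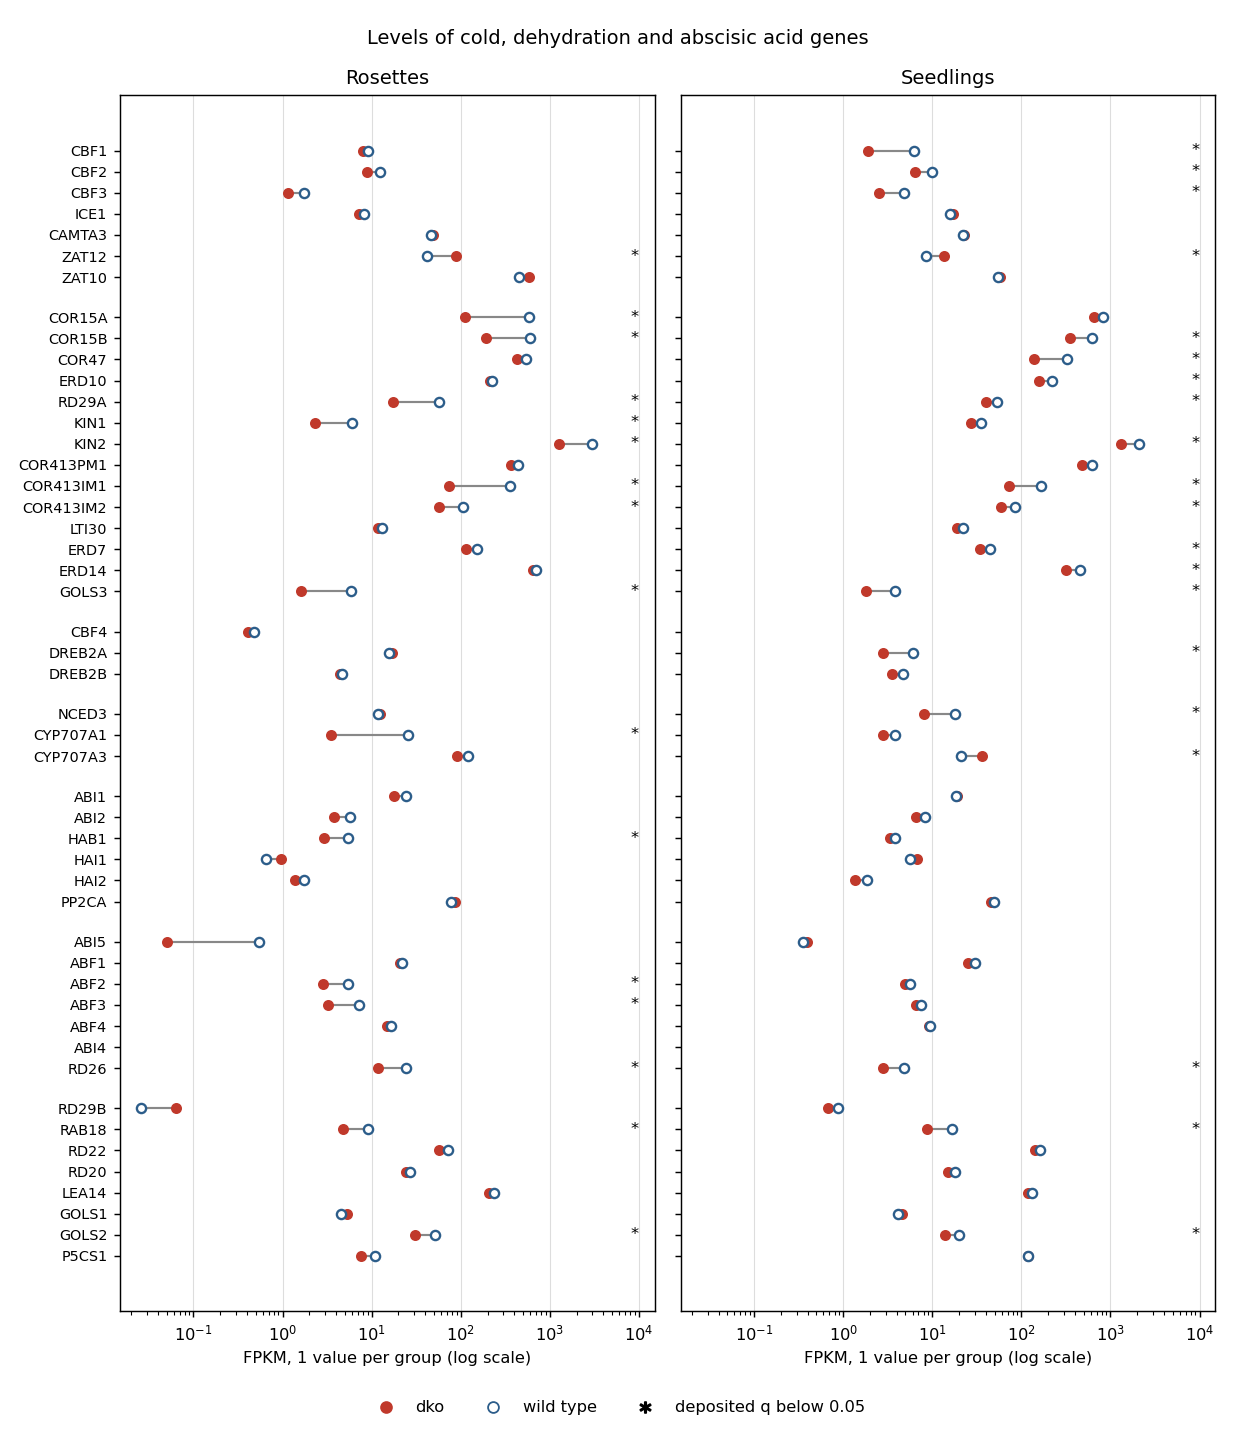
FPKM on a log scale (1 pooled value per group, no error bar) of the 48 genes in rosettes (left) and seedlings (right), with dko as filled red points, wild type as open blue points and an asterisk where the deposited q is below 0.05. In the cold-induced block from COR15A to GOLS3 every dko point lies left of its wild-type point in both tissues; genes listed at 0 (ABI4 in both tissues, CBF4 in seedlings) have no point.

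Of the 7 regulators of the cold branch, none fell and 1 rose in rosettes, and 3 fell and 1 rose in seedlings. Over all loci tested, 8.94% fell and 7.81% rose in rosettes, and 8.14% fell and 8.40% rose in seedlings. CBF1 (AT4G25490), CBF2 (AT4G25470) and CBF3 (AT4G25480), the activators of the COR genes, had 8.08, 8.84 and 1.15 FPKM in dko rosettes, against 9.02, 12.3 and 1.74 FPKM in wild-type rosettes, in the authors' deposited table. All 3 dko values were the lower ones, yet none passed the threshold (the authors' deposited table gives log2 ratios of -0.16, -0.48 and -0.60, with a smallest q of 0.221). In seedlings all 3 fell. CBF1 had 1.88 FPKM in dko seedlings against 6.24 in wild-type seedlings, the lowest log2 ratio of the group in that tissue (-1.73, q = 0.000768) in the authors' deposited table. CBF2 had 6.46 FPKM in dko seedlings against 9.82 in wild-type seedlings (log2 ratio -0.60, q = 0.0177), and CBF3 2.55 against 4.85 FPKM (log2 ratio -0.93, q = 0.0120), in the authors' deposited table. These genes lie side by side on chromosome 4 with 1993 and 2658 bp between them, and their coding sequences are 85.0% to 86.7% identical. The sources used here do not state how reads matching several copies were assigned, so the split of reads among the 3 is uncertain.

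ICE1 (AT3G26744) and CAMTA3 (AT2G22300), which act before the CBF genes, stayed within a log2 ratio of -0.18 to 0.09 in both of the authors' deposited tables, with no q below 0.675. ZAT12 (AT5G59820), a zinc finger factor that answers to cold, high light and oxidative stress, was the only gene of the group that rose in both tissues. It had 88.0 FPKM in dko rosettes against 42.2 in wild-type rosettes (log2 ratio 1.06, q = 0.000899), in the authors' deposited table. The values in seedlings were 13.7 FPKM in the dko and 8.41 in wild type (log2 ratio 0.70, q = 0.00360), in the authors' deposited table. ZAT10 (AT1G27730), a related zinc finger factor of stress and salt responses, had 587 FPKM in dko rosettes against 449 in wild-type rosettes and 57.3 FPKM in dko seedlings against 54.2 in wild-type seedlings. Neither difference of ZAT10 passed (smallest q = 0.373 in the authors' deposited tables).

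The cold-induced effector genes carried most of the falls. Of these 14 genes, 8 (57.1%) fell in rosettes and 10 (71.4%) in seedlings, against 8.94% and 8.14% of all loci tested. These genes too were chosen with earlier results of these data known, so the contrast is a description only. None rose in either tissue. The median log2 ratio of the 14 was -1.06 in rosettes and -0.52 in seedlings. Their summed level was 3519 FPKM in dko rosettes against 6789 in wild-type rosettes, and 3669 FPKM in dko seedlings against 5580.5 in wild-type seedlings. KIN2, the most abundant of them, weighs heavily in these sums. Without it they were 2250 against 3785 FPKM in rosettes and 2347 against 3464 FPKM in seedlings (dko against wild type). The median log2 ratio was then -0.87 in rosettes and -0.52 in seedlings. All 14 ratios lay below 0 in both of the authors' deposited tables. With FPKM rescaled to nuclear loci, ERD10 (AT1G20450), COR413PM1 (AT2G15970), LTI30 (AT3G50970) and ERD14 (AT1G76180), none of which passed the test there, came to lie above 0 in rosettes.

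COR15A (AT2G42540) and COR15B (AT2G42530) encode proteins of the chloroplast stroma that protect its inner membrane during freezing. COR15A had 112 FPKM in dko rosettes against 589 in wild-type rosettes, 19.1% of the wild-type value (log2 ratio -2.39, q = 0.000899), in the authors' deposited table. COR15B had 194 FPKM in dko rosettes against 593 in wild-type rosettes (log2 ratio -1.62, q = 0.000899) in the same authors' deposited table. In seedlings COR15B fell to 355 FPKM in the dko, against 622 in wild type (log2 ratio -0.81, q = 0.000768), whereas COR15A had 647 FPKM in dko seedlings against 815 in wild-type seedlings and did not pass (log2 ratio -0.33, q = 0.124), in the authors' deposited table. Both genes lie 1086 bp apart on chromosome 2 with coding sequences 82.6% identical, so reads may be shared between them too.

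COR413IM1 (AT1G29395) and COR413IM2 (AT1G29390) encode proteins of the inner chloroplast envelope and lie 93 bp apart on chromosome 1. COR413IM1 had 74.5 FPKM in dko rosettes against 359.7 in wild-type rosettes (log2 ratio -2.27, q = 0.000899), in the authors' deposited table. Seedlings had 73.2 FPKM in the dko against 167 in wild type (log2 ratio -1.19, q = 0.000768), in the authors' deposited table. Its neighbour COR413IM2 had 57.7 FPKM in dko rosettes against 105 in wild-type rosettes (log2 ratio -0.87, q = 0.000899), in the authors' deposited table. In seedlings it had 58.3 FPKM in the dko against 85.6 in wild type (log2 ratio -0.55, q = 0.000768), in the authors' deposited table. COR413PM1, the relative located in the plasma membrane, did not pass in either tissue, and the authors' deposited tables give it a log2 ratio of -0.24 in rosettes (q = 0.596) and of -0.35 in seedlings (q = 0.0761). The 4 genes for chloroplast proteins, a grouping made after their values were seen, thus all fell in rosettes, where their summed level was 438 FPKM in the dko against 1647 FPKM in wild type. In seedlings 3 of the 4 fell.

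KIN2 (AT5G15970), also called COR6.6, which encodes a small hydrophilic protein, was the most abundant transcript of the group. It had 1269 FPKM in dko rosettes against 3004 in wild-type rosettes (log2 ratio -1.24, q = 0.000899), in the authors' deposited table. The values in seedlings were 1322 FPKM in the dko and 2117 in wild type (log2 ratio -0.68, q = 0.000768), in the authors' deposited table. By FPKM it ranked 31 in dko rosettes and 13 in wild-type rosettes among 18171 tested nuclear loci other than ribosomal RNA, and 40 in both seedling groups among 19578. Its neighbour KIN1 (AT5G15960) had 2.29 FPKM in dko rosettes against 6.05 in wild-type rosettes (log2 ratio -1.40, q = 0.0225), in the authors' deposited table. Seedlings had 27.3 FPKM in the dko against 35.6 in wild type (log2 ratio -0.38, q = 0.0819), in the authors' deposited table. The coding sequences of KIN1 and KIN2 are 95.0% identical over 201 bases, so the split of reads between them is uncertain.

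RD29A (AT5G52310), the gene used most often to follow cold, drought and abscisic acid together, had 17.3 FPKM in dko rosettes against 57.4 in wild-type rosettes (log2 ratio -1.73, q = 0.000899), in the authors' deposited table. In seedlings it had 40.1 FPKM in the dko against 52.8 in wild type (log2 ratio -0.40, q = 0.0186) in the authors' deposited table. GOLS3 (AT1G09350), the galactinol synthase that answers to cold and starts raffinose synthesis, had 1.61 FPKM in dko rosettes against 5.81 in wild-type rosettes (log2 ratio -1.85, q = 0.000899), in the authors' deposited table. In seedlings it had 1.79 FPKM in the dko against 3.79 in wild type (log2 ratio -1.08, q = 0.00309), in the authors' deposited table. Both genes thus fell in each tissue, with the ratio farther from 0 in rosettes. That difference between tissues was not tested, because the tables hold no replicate values and were normalised separately.

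Dehydrins are flexible proteins that bind water and membranes in drying cells, and 4 of the cold-induced genes encode one. This grouping was made after the values were seen. RAB18, a dehydrin gene of the abscisic acid and dehydration branch given below, fell in both tissues. COR47 (AT1G20440), ERD10, ERD14 and LTI30 did not pass in rosettes, where their log2 ratios ran from -0.32 to -0.08 in the authors' deposited table and the smallest q was 0.499. In seedlings COR47 had 137 FPKM in the dko against 323 in wild type (log2 ratio -1.24, q = 0.000768), in the authors' deposited table. ERD14 had 316 FPKM in dko seedlings against 455 in wild-type seedlings (log2 ratio -0.53, q = 0.00141), and ERD10 had 156 against 223 FPKM (log2 ratio -0.52, q = 0.00360), in the authors' deposited table. LTI30 did not pass there either (18.9 FPKM in dko seedlings against 22.2 in wild-type seedlings, log2 ratio -0.23, q = 0.334 in the authors' deposited table). COR47 and ERD10 are neighbours on chromosome 1 with 2230 bp between them. ERD7 (AT2G17840), a gene of early drought responses, had 34.1 FPKM in dko seedlings against 44.5 in wild-type seedlings (log2 ratio -0.38, q = 0.0180), and its rosette log2 ratio of -0.41 did not pass (q = 0.2999), in the authors' deposited tables.

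**Figure D2:**
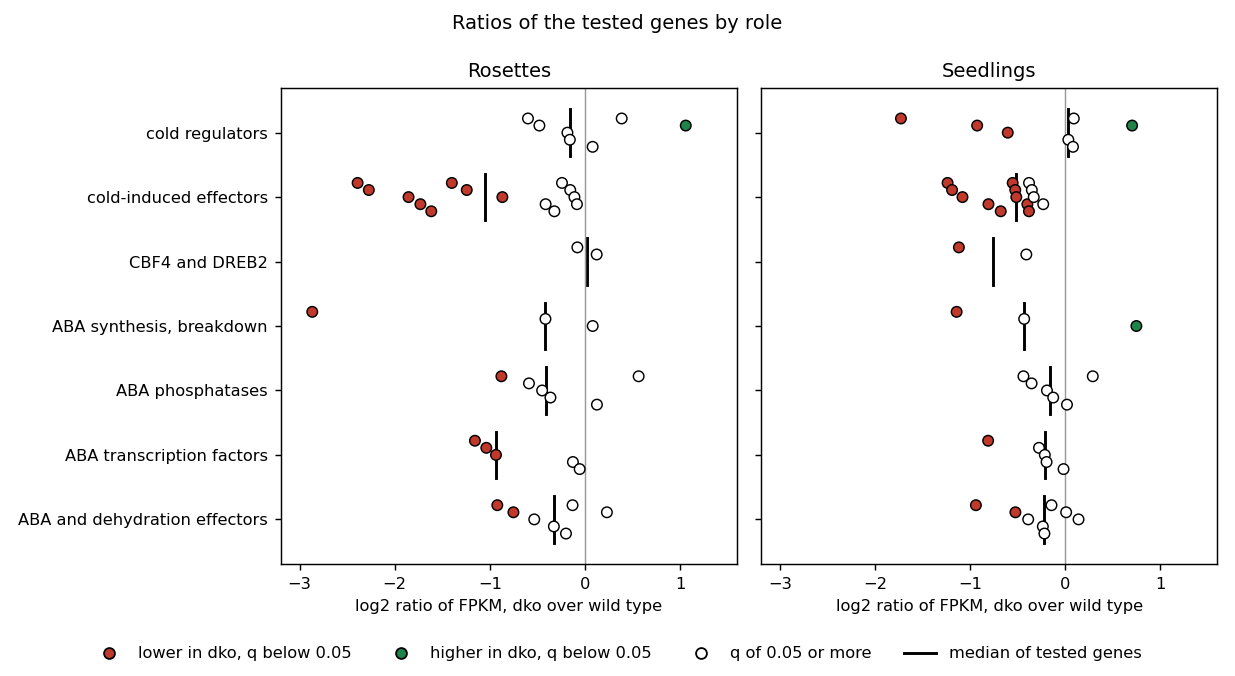
Log2 ratio of FPKM, dko over wild type, of each tested gene by role in rosettes (left) and seedlings (right), with filled points for deposited q below 0.05 (red lower, green higher), open points for the others and a bar at the median. Cold-induced effectors form the row with most red points in both tissues, and ZAT12 is the green point among the cold regulators.

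The DNA before the effector genes that fell in both tissues is shown for those with the highest wild-type level in rosettes. Such sequences can hold the elements that the CBF and ABF factors bind. Each run is the 300 bases before the 5′ end of the gene in the RefSeq annotation of TAIR10.1, written 5′ to 3′ on the strand of the gene, with capitals where the core of the CRT/DRE (CCGAC or its reverse complement GTCGG) or of the ABRE (ACGTG or its reverse complement CACGT) occurs. COR15B and COR413IM2 were passed over since the 300 bases before them reach into a neighbouring gene. RAB18 (AT5G66400), whose 300 bases do so too, and GOLS3 had lower wild-type rosette levels than the genes shown under this rule. COR15A was added after its values were seen. The sequences lie at chr5:5211419-5211718 (KIN2, plus strand), chr1:10289667-10289966 (COR413IM1, minus strand), chr5:21240417-21240716 (RD29A, plus strand), chr1:21207237-21207536 (GOLS2 (AT1G56600), plus strand) and chr2:17712331-17712630 (COR15A, minus strand).
KIN2: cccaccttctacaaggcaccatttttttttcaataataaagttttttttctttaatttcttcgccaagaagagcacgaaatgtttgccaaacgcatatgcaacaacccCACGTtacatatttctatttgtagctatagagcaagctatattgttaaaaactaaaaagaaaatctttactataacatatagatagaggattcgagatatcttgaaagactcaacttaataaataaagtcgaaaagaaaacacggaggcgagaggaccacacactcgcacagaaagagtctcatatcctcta
COR413IM1: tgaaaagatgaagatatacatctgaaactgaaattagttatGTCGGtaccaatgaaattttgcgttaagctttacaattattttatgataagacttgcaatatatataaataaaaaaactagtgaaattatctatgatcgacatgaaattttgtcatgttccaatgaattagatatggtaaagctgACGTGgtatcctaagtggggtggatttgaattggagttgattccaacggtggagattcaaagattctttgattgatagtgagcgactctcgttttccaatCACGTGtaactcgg
RD29A: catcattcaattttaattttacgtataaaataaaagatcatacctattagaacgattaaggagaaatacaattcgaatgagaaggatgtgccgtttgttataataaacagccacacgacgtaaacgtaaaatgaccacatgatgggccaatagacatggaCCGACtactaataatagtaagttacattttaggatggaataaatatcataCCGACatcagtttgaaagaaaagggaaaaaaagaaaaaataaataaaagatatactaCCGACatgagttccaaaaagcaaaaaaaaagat
GOLS2: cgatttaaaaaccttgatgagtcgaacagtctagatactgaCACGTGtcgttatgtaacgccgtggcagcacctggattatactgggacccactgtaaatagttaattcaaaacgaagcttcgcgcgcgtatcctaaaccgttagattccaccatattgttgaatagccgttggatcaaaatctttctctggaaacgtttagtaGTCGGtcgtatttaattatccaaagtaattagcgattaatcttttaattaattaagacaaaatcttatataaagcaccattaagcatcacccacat
COR15A: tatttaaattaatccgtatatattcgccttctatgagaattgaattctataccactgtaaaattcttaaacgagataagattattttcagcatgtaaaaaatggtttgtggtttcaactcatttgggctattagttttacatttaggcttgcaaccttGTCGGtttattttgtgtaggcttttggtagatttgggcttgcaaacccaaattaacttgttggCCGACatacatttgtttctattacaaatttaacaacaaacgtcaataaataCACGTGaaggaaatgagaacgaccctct
RD29A holds 3 CRT/DRE cores in this window, which begin 140, 90 and 33 bases before the annotated 5′ end, and no ABRE core. COR15A holds CRT/DRE cores that begin 142 and 79 bases before its 5′ end, and an ABRE core close to the end. COR413IM1 and GOLS2 hold 1 CRT/DRE core each and also ABRE cores, and KIN2 holds 1 ABRE core and no CRT/DRE core. A palindromic CACGTG, as in COR15A, COR413IM1 and GOLS2, reads as an ABRE core on both strands. The 5′ ends of KIN2, RD29A and COR413IM1 in RefSeq lie 192, 132 and 45 bases before those of the deposited loci, so that an element nearer to the start can fall outside the window.

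Over all 48 genes, 14 held a CRT/DRE core and 32 an ABRE core within 300 bases, against 13.9% and 25.6% of 27444 nuclear protein-coding genes. The evening element (AAAATATCT, either strand), a site of clock factors, was found before 5 of the 48 and before 2.79% of all. Of the 14 cold-induced effectors 8 held a CRT/DRE core, and of the 27 genes of the abscisic acid and dehydration branch 21 held an ABRE core. A CRT/DRE core was present in 7 of the 15 genes that fell in rosettes and in 6 of the 29 tested that did not, and in 7 of the 18 that fell in seedlings and 7 of the 27 that did not. The ABRE core was present in 12 of the 15 that fell in rosettes and in 17 of the 29 others, and in 12 of the 18 that fell in seedlings and 18 of the 27 others. The counts keep COR15B, COR413IM2, LTI30 and RAB18, for which the 300 bases reach into a neighbouring gene. The RefSeq 5′ end lies 1101 bases before that of the deposited locus for COR47, 488 for COR15B and 416 for NCED3. Elements near the deposited start of such genes can be missed. These shares also depend on the window. Within 1000 bases, a CRT/DRE core was present in 9 of the 15 genes that fell in rosettes and in 17 of the 29 others, and in 12 of the 18 that fell in seedlings and 15 of the 27 others. In that window the ABRE core was present in 12 of the 15 that fell in rosettes and in 23 of the 29 others, and in 15 of the 18 that fell in seedlings and 21 of the 27 others. Of all 48 genes, 28 held a CRT/DRE core and 38 an ABRE core within 1000 bases, against 37.4% and 54.4% of the protein-coding genes. The evening element was found within 1000 bases before 17 of the 48 and before 7.24% of the protein-coding genes. It was present there in 4 of the 15 that fell in rosettes and in 12 of the 29 others. In seedlings these counts were 6 of the 18 and 10 of the 27. Several of these genes are those in which the elements were first described, and a match of these letters is not a shown binding site.

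The drought-side relatives of the CBF factors were DREB2A (AT5G05410) and DREB2B (AT3G11020), which drive drought and heat genes, and CBF4 (AT5G51990). DREB2A had 2.78 FPKM in dko seedlings against 6.03 in wild-type seedlings (log2 ratio -1.12, q = 0.000768), in the authors' deposited table. The values in rosettes were 16.9 FPKM in the dko and 15.5 in wild type (log2 ratio 0.12, q = 0.784), in the authors' deposited table. DREB2B did not pass in rosettes (log2 ratio -0.08, q = 0.892) or seedlings (log2 ratio -0.41, q = 0.143) in the authors' deposited tables. CBF4 was too low to be tested, at 0.407 FPKM in dko rosettes and 0.475 in wild-type rosettes, and it is listed at 0 in both seedling groups.

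Of the 3 genes that make or remove abscisic acid, 1 fell in rosettes, and 1 fell and 1 rose in seedlings. Over all loci tested 8.94% fell in rosettes, and 8.14% fell and 8.40% rose in seedlings. Single calls among 3 genes therefore say little about the role as a whole. CYP707A1 (AT4G19230), a hydroxylase that breaks the hormone down, had 3.50 FPKM in dko rosettes against 25.5 in wild-type rosettes, 13.7% of the wild-type value and the lowest ratio among the tested genes of the group (log2 ratio -2.87, q = 0.000899), in the authors' deposited table. In seedlings it had 2.81 FPKM in the dko and 3.79 in wild type and did not pass (log2 ratio -0.43, q = 0.115 in the authors' deposited table). Its relative CYP707A3 (AT5G45340) had 90.4 FPKM in dko rosettes against 121 in wild-type rosettes (log2 ratio -0.41, q = 0.343), but rose in seedlings, with 35.7 FPKM in the dko against 21.3 in wild type (log2 ratio 0.75, q = 0.000768), in the authors' deposited tables. NCED3 (AT3G14440), the dioxygenase that limits synthesis under drought, had 8.05 FPKM in dko seedlings against 17.8 in wild-type seedlings (log2 ratio -1.14, q = 0.000768), in the authors' deposited table. Rosettes had 12.5 FPKM in the dko against 11.8 in wild type (log2 ratio 0.08, q = 0.864), in the authors' deposited table.

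Among the 6 phosphatase genes that hold back the hormone signal, 1 fell in rosettes and none in seedlings, where at q below 0.1 ABI2 (AT5G57050) alone would pass. Since 8.94% of all loci tested fell in rosettes and 8.14% in seedlings, these counts say little about the role as a whole. In the authors' deposited table HAB1 (AT1G72770) had 2.92 FPKM in dko rosettes against 5.37 in wild-type rosettes (log2 ratio -0.88, q = 0.00818). ABI1 (AT4G26080) had 17.8 FPKM in dko rosettes against 24.4 in wild-type rosettes (log2 ratio -0.45, q = 0.147) and ABI2 3.78 against 5.69 FPKM (log2 ratio -0.59, q = 0.0828), neither past the threshold in the authors' deposited table. PP2CA (AT3G11410), the most abundant of the 6, had 85.6 FPKM in dko rosettes against 78.5 in wild-type rosettes and 45.6 FPKM in dko seedlings against 49.8 in wild-type seedlings (smallest q = 0.582 in the authors' deposited tables). HAI1 (AT5G59220) and HAI2 (AT1G07430), which the hormone induces strongly, lay between 0.655 and 6.79 FPKM over the groups and did not pass (smallest q = 0.225 in the authors' deposited tables).

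Among transcription factors of the hormone response, ABF2 (AT1G45249), ABF3 (AT4G34000) and RD26 (AT4G27410) fell in rosettes. ABF3 had 3.23 FPKM in dko rosettes against 7.20 in wild-type rosettes (log2 ratio -1.16, q = 0.000899), and ABF2 had 2.83 against 5.42 FPKM (log2 ratio -0.94, q = 0.00854), in the authors' deposited table. RD26, a NAC factor induced by drought and abscisic acid, had 11.9 FPKM in dko rosettes against 24.5 in wild-type rosettes (log2 ratio -1.04, q = 0.000899), in the authors' deposited table. In seedlings it had 2.76 FPKM in the dko against 4.85 in wild type (log2 ratio -0.81, q = 0.0157), in the authors' deposited table. In seedlings no ABF gene passed, with log2 ratios of ABF1 (AT1G49720) to ABF4 (AT3G19290) from -0.28 to -0.02 and a smallest q of 0.307 in the authors' deposited table. ABF1 had 20.9 FPKM in dko rosettes against 21.7 in wild-type rosettes and ABF4 14.9 against 16.3 FPKM, with no call (the authors' deposited table gives q = 0.936 for ABF1 and q = 0.773 for ABF4). ABI5 (AT2G36270), a factor of seeds and young seedlings, was not tested, with 0.0504 FPKM in dko rosettes, 0.546 in wild-type rosettes, 0.394 in dko seedlings and 0.352 in wild-type seedlings. ABI4 (AT2G40220) is listed at 0 in every group.

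Of the 8 effector genes of abscisic acid and dehydration, RAB18 and GOLS2 fell in both tissues. The shares of all tested loci that fell were 8.94% in rosettes and 8.14% in seedlings. RAB18, a dehydrin gene used as a marker of the hormone response, had 4.81 FPKM in dko rosettes against 9.11 in wild-type rosettes (log2 ratio -0.92, q = 0.0156), in the authors' deposited table. The values in seedlings were 8.76 FPKM in the dko and 16.8 in wild type (log2 ratio -0.94, q = 0.000768), in the authors' deposited table. GOLS2, a galactinol synthase of the drought response, had 30.8 FPKM in dko rosettes against 51.9 in wild-type rosettes (log2 ratio -0.75, q = 0.0132), in the authors' deposited table. Seedlings had 13.9 FPKM in the dko against 20.0 in wild type (log2 ratio -0.52, q = 0.00141), in the authors' deposited table. The other 6 did not pass in either tissue. Among them, the drought gene RD22 (AT5G25610), the caleosin gene RD20 (AT2G33380), LEA14 (AT1G01470) and GOLS1 (AT2G47180) had log2 ratios from -0.33 to 0.23 over both of the authors' deposited tables, with no q below 0.304. P5CS1 (AT2G39800), which makes proline, had 7.63 FPKM in dko rosettes against 11.04 in wild-type rosettes (log2 ratio -0.53, q = 0.185), in the authors' deposited table. In seedlings it had 119.9 FPKM in the dko against 119.2 in wild type (log2 ratio 0.01, q = 0.982), in the authors' deposited table. RD29B (AT5G52300), the relative of RD29A that depends most on the hormone, was not tested in rosettes (0.0637 FPKM in the dko, 0.0256 in wild type) and had 0.671 FPKM in dko seedlings against 0.879 in wild-type seedlings (log2 ratio -0.39, q = 0.410 in the authors' deposited table). Beside these values, all 4 guard cell genes (FAMA, MYB60, KAT1 and HT1), markers of the cells in which abscisic acid closes stomata, had ratios below 0 in both tissues. Their summed level was 15.9 FPKM in dko rosettes against 19.4 in wild-type rosettes and 22.7 FPKM in dko seedlings against 28.6 in wild-type seedlings. MYB60 alone passed, in seedlings (log2 ratio -0.65, q = 0.0460 in the authors' deposited table). The part of these cells in the results was not tested.

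Setting the tissues side by side, 9 genes fell in both: COR15B, RD29A, KIN2, COR413IM1, COR413IM2, GOLS3, RD26, RAB18 and GOLS2. They are 60% of the 15 that fell in rosettes and 50% of the 18 that fell in seedlings, while over all loci tested in both tissues the shared falls were 29.0% and 29.6% of the lists. This contrast is also only a description, because the genes were chosen with earlier results of these data known. Falls called in rosettes and not in seedlings were those of COR15A, KIN1, CYP707A1, HAB1, ABF2 and ABF3. Falls called in seedlings and not in rosettes were those of CBF1, CBF2, CBF3, COR47, ERD10, ERD7, ERD14, DREB2A and NCED3. Across the 44 genes tested in both, the log2 ratios of the tissues had a Pearson r of 0.35 and a Spearman rho of 0.38, a description over genes that share the same libraries.

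**Figure D3:**
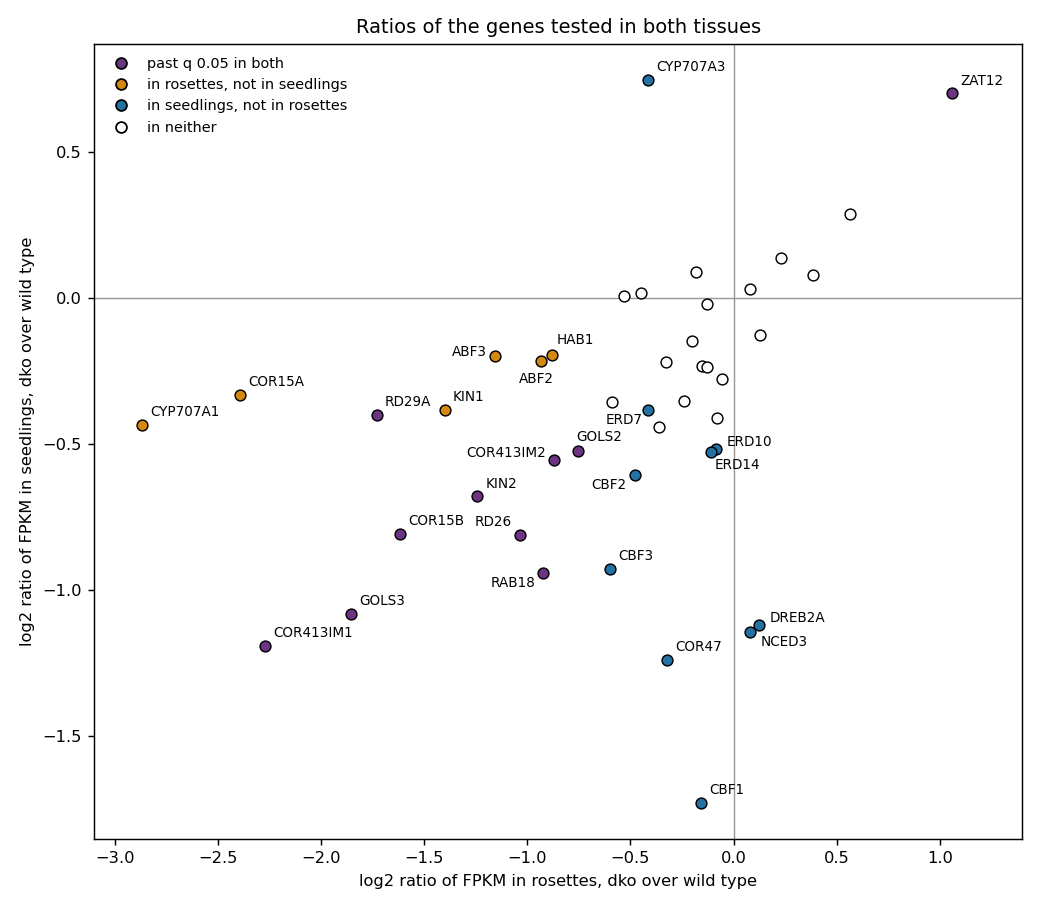
Log2 ratio of FPKM, dko over wild type, in rosettes (horizontal) and seedlings (vertical) for the 44 genes tested in both tissues, coloured by where the deposited q is below 0.05. COR413IM1, GOLS3 and COR15B lie far below 0 on both axes, CYP707A1 and COR15A mainly on the rosette axis, and CBF1, COR47, NCED3 and DREB2A mainly on the seedling axis.

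Other genes of the same pathways, 65 in all, were taken from lists of receptors, kinases, enzymes, factors and effectors. These lists too were chosen with earlier results of these data known. Of 49 tested in rosettes, 3 fell and 3 rose (6.12% each), with a median log2 ratio near 0. Over all loci tested in rosettes 8.94% fell and 7.81% rose, so neither share of these lists was above that. Of 48 tested in seedlings 10 fell (20.8%) and none rose, with a median of -0.15. Over all loci tested in seedlings 8.14% fell and 8.40% rose. None of the 9 tested receptor genes of abscisic acid passed in either tissue. Their smallest q in the authors' deposited tables was 0.118 in rosettes (PYL7) and 0.0508 in seedlings (PYL8). Of the SnRK2 kinase genes, SNRK2.3 rose in rosettes, with 93.2 FPKM in the dko against 62.4 in wild type (log2 ratio 0.58, q = 0.0453 in the authors' deposited table). SNRK2.8, named here after its value was seen, had 32.3 FPKM in dko rosettes against 5.46 in wild-type rosettes. That was the highest log2 ratio of the tested genes of these lists in rosettes (2.57), but it did not pass (deposited q = 0.0537). In seedlings the log2 ratio of SNRK2.8 was 0.15 (deposited q = 0.899). ABA1, the zeaxanthin epoxidase of hormone synthesis, had 28.3 FPKM in dko rosettes against 51.1 in wild-type rosettes (log2 ratio -0.85, q = 0.00231), and CYP707A2, another hydroxylase, 1.05 against 2.89 FPKM (log2 ratio -1.47, q = 0.00231), in the authors' deposited table. ABCG40, an importer of the hormone named here after its value was seen because it lies under 1 FPKM, rose in rosettes (0.717 FPKM in the dko against 0.333 in wild type, q = 0.0362 in the authors' deposited table).

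MYB15, which has been described as a repressor of the CBF genes, fell in both tissues, with 4.46 FPKM in dko rosettes against 10.3 in wild-type rosettes (log2 ratio -1.21, q = 0.000899) and 0.637 FPKM in dko seedlings against 1.33 in wild-type seedlings (log2 ratio -1.06, q = 0.0454), in the authors' deposited tables. The clock-linked gene COR27 had 53.4 FPKM in dko seedlings against 68.8 in wild-type seedlings (log2 ratio -0.37, q = 0.0314 in the authors' deposited table). In seedlings 3 of 4 further factors of the hormone response fell. Their log2 ratios in the authors' deposited table were -1.20 (ANAC055), -0.88 (ANAC019) and -0.77 (ATHB12). Of 10 further dehydration genes tested in seedlings 5 fell, among them ERD4 (log2 ratio -0.58), ERD1 (-0.52) and RD19A (-0.44) in the authors' deposited table. PRODH1, which breaks proline down, rose in rosettes, with 64.9 FPKM in the dko against 34.3 in wild type (log2 ratio 0.92, q = 0.000899), and fell in seedlings, with 5.28 FPKM in the dko against 15.8 in wild type (log2 ratio -1.58, q = 0.000768), in the authors' deposited tables. The difference of PRODH1 between the tissues was not tested.

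**Figure D4:**
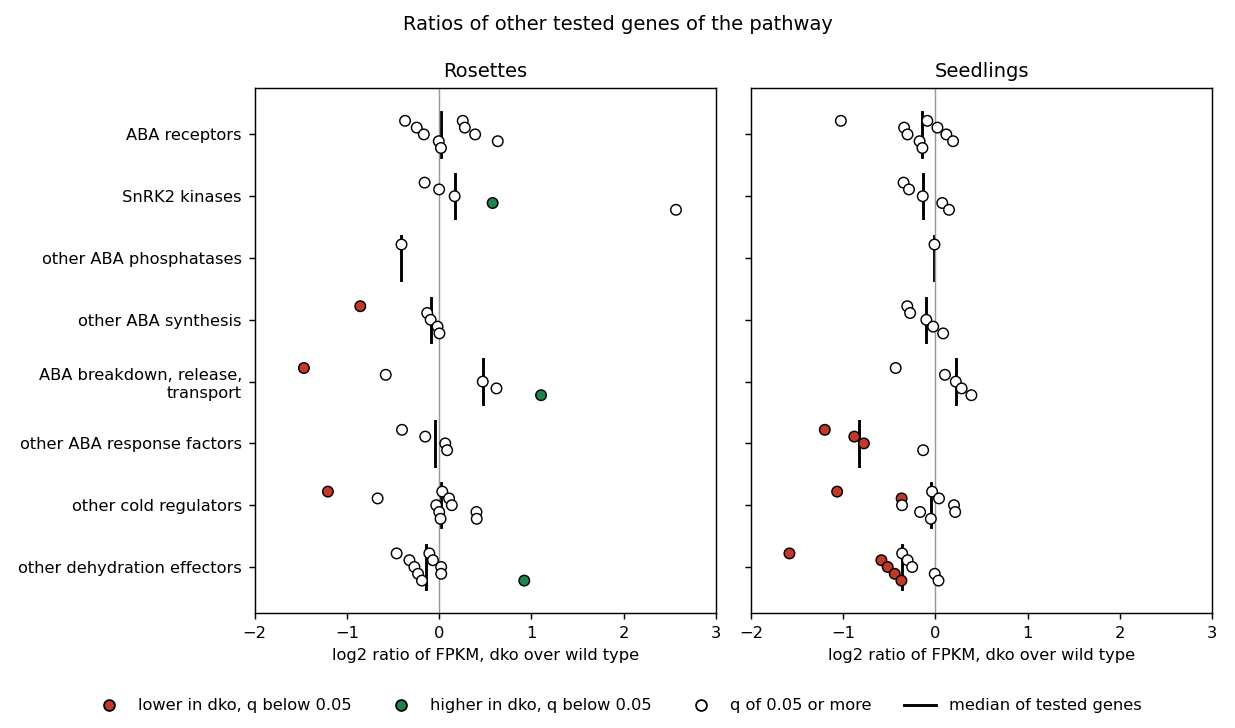
Log2 ratio of FPKM, dko over wild type, of other tested genes of the cold and abscisic acid pathways by list in rosettes (left) and seedlings (right), with filled points for deposited q below 0.05 (red lower, green higher), open points for the others and a bar at the median. Receptor genes have open points throughout, and PRODH1 is the green point of the last row in rosettes and its leftmost red point in seedlings.

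Loci of 5 genes of the group (ABF1, ABF4, CAMTA3, GOLS1 and P5CS1) share their span with another annotated locus. The sources used here do not state whether counting used the strand, so their reads cannot be told apart from those of the partner with certainty; none of the 5 passed in either tissue.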

How the data were processed

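Stranded libraries of dko and wild-type rosettes and seedlings were made after removal of ribosomal RNA, per the labels' protocols. Per the submitters' processing notes the build was TAIR10 and the tools were Cuffdiff, Cufflinks, TopHat2 and Bowtie2, with 2.2.0 as the version of each. The sources used here do not name the annotation or the library normalisation. The authors deposited FPKM, 1 pooled value per group, scaled within 1 table per tissue, per the file headers. The authors also deposited the log2 ratio of dko over wild type, a test score (not printed), the p-value and the q-value; recomputed q-values differed by at most 5.24e-07. The stated replicates may be technical, and q-values then measure only their spread. Low FPKM values lay on no common steps (the most common ratio covered 0.296% of 1691 rosette and 0.267% of 1872 seedling loci under 0.2 FPKM), so reads were not recovered and depth is unknown.

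The 48 genes and all lists were chosen with earlier results of these data known. Counts use q below 0.05 over the loci marked as tested (18338 and 19747). All 48 genes, named individually, and up to 4 called genes of each further list at 1 FPKM or more (others named as such) are given. All 48 identifiers were in the RefSeq annotation of TAIR10.1. Sequences come from that genome with pysam 0.24.0; of 27983 nuclear loci 8302 had the same start and 8166 the same end in the tables after adding 1 to table starts. Coding identity is that of a global alignment (Biopython 1.88). The adjustment was tested on simulated data. Tables were read with pandas 2.3.3. Results were also computed with pseudocounts of 1 and 0.1, after recentring or rescaling, with other adjustments of q, with q of 0.01 or 0.1, for loci at 1 FPKM or more, and with a minimum of 2-fold.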

Additional observations from a re-analysis of the deposited data

How the results depend on the processing

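The 44 genes tested in rosettes and the 45 tested in seedlings kept their direction and call when q was adjusted over nuclear loci. So did those at 1 FPKM or more when q was adjusted over such loci, an adjustment that leaves out HAI1 in rosettes and RD29B in seedlings. With a 2-fold minimum, 6 genes were lower and 0 higher in seedlings, in place of 18 and 2, and 10 lower in rosettes in place of 15. At q thresholds of 0.01 and 0.1 the lower genes numbered 12 and 16 in rosettes and 13 and 21 in seedlings. The rosette median log2 ratio of -0.39 became -0.34 and -0.38 with pseudocounts of 1 and 0.1, -0.41 at 1 FPKM or more, -0.40 when recentred and -0.12 when rescaled to nuclear loci other than ribosomal RNA. The seedling median of -0.38 became -0.33, -0.35, -0.37, -0.39 and -0.19 under the same alternatives. The rescaling only adds the same constant to the log2 ratio of every locus, so the median over all tested loci moves equally. It turned these rosette log2 ratios, none past the threshold, above 0: CBF1 0.11, ICE1 0.0883, ERD10 0.19, COR413PM1 0.0313, LTI30 0.12, ERD14 0.16, DREB2B 0.19, ABF1 0.22, ABF4 0.15, RD20 0.14 and LEA14 0.0731. In seedlings it did so for PP2CA 0.0631, ABF4 0.17 and LEA14 0.045, and recentring moved P5CS1 to -0.0010. Calls could not be recomputed under the rescaling. No paired analysis was possible because the tables hold 1 pooled value per group, and for the same reason no replicate could be left out. Depth is unknown. CBF4, ABI4, ABI5 and, in rosettes, RD29B were not tested by the authors, so no difference can be given for them.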
